A study of Mus musculus with 4 samples.

Results

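The Cyp4 genes encode cytochrome P450 enzymes that hydroxylate fatty acids, and 9 of them were described here in mouse liver: Cyp4a10, Cyp4a12a, Cyp4a12b, Cyp4a14, Cyp4a31, Cyp4a32, Cyp4f14, Cyp4f15 and Cyp4v3. They were chosen by name from the 13903 genes in the deposited table, with their values in these libraries known, so their levels and differences are a description and carry no test. All 9 were among the 8963 genes compared, which averaged 10 CPM or more over the 4 libraries (CPM, reads scaled to a library total of 1000000). Cyp4a31 (mean 10.9 CPM) and Cyp4a32 (mean 10.2 CPM) passed only through the label in which each was high. The table held 5 other Cyp4 genes, of which 2 passed the same limit.

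Liver mRNA was measured in OGT-Floxed animals of C57BL/6J background that all ate the CDE diet, a feed deficient in choline with added ethionine that damages the liver. AAV8-TBG-CRE was given to the animals labelled OGT-KO and AAV8-TBG-eGFP, a virus of the same kind without Cre, to those labelled Control. Under each label tissue was collected either at the end of the diet (No Recovery) or 7 days later. RNA of 3 mice was pooled into 1 library for each of the 4 conditions. Replicate error therefore cannot be given, and every interval is a 95% interval that covers counting error only. The TBG promoter is active in hepatocytes, so other liver cells of the mice labelled OGT-KO keep an intact Ogt gene. Age and sex were not given in the labels, and the 4 Y-linked genes checked summed to between 114 and 119 CPM in every library.

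The libraries held 19972699 to 22866431 reads on listed genes. Ogt, the gene that AAV8-TBG-CRE targets, stood at 64.7 CPM under the Control label and 55.3 CPM under the OGT-KO label with no recovery. After 7 days it stood at 55.7 and 77.7 CPM, a log2 difference of 0.47 as deposited that goes against the label. The median of all genes compared was 0.48 in that comparison, and -0.18 after median-ratio scaling. Reads counted over a whole gene do not show whether part of it was lost. The state of Ogt was therefore not settled by these counts, and groups are named throughout by their labels. The libraries labelled OGT-KO also stood apart in markers of other liver cells. The summed level of 13 duct and progenitor markers was 4677 and 4535 CPM in them against 568 and 632 CPM under the Control label, and that of 11 stellate cell and fibroblast markers was 3642 and 4427 against 258 and 185 CPM. Most of the duct sum came from Krt8 (1861 and 1545 against 262 and 275 CPM) and Krt18 (1479 and 1247 against 224 and 254 CPM). These keratins are also made by hepatocytes, so the duct sum is not a measure of other cells alone. Epcam stood at 64.2 and 82.6 against 1.55 and 2.35 CPM. The summed level of 15 hepatocyte markers was 80120 and 92210 CPM under OGT-KO, and 111300 and 130000 CPM under Control. In bulk liver RNA, fewer hepatocytes and less of a transcript per hepatocyte cannot be told apart.

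CYP4 enzymes sit in the endoplasmic reticulum and add a hydroxyl group to the terminal (omega) carbon of fatty acids, with electrons passed on by cytochrome P450 reductase. The hydroxy acids are oxidised further to dicarboxylic acids, which peroxisomes shorten. In rodent liver Cyp4a10 and Cyp4a14 are classical targets of the fatty acid receptor PPARα, Cyp4a12a and Cyp4a12b are more abundant in males and hydroxylate arachidonic acid, and the Cyp4f enzymes hydroxylate leukotrienes and other eicosanoids. Cyp4v3 is the mouse counterpart of a human fatty acid hydroxylase gene that is mutated in a retinal dystrophy.

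The 6 Cyp4a genes lie together on chromosome 4, in the order Cyp4a12a, Cyp4a12b, Cyp4a14, Cyp4a10, Cyp4a31 and Cyp4a32 in the RefSeq annotation of GRCm38.p6, with other Cyp4 genes and pseudogenes between them. Cyp4f14 and Cyp4f15 lie on chromosome 17 and Cyp4v3 on chromosome 8. Copies in the Cyp4a cluster are close enough in sequence that a short read can match more than 1 gene, and how such reads were counted is not given in the sources used here. Over the coding region in GENCODE M21, Cyp4a12a and Cyp4a12b were 98.5% identical, Cyp4a10 and Cyp4a32 97.2%, Cyp4a10 and Cyp4a31 96.6%, and Cyp4a31 and Cyp4a32 96.0%. Cyp4a14 was 75.0% to 75.9% identical to the other Cyp4a genes, and Cyp4f14 was 80.0% identical to Cyp4f15. Of all stretches of 50 bases in a transcript, 48.9% of Cyp4a12a, 46.8% of Cyp4a32, 30.5% of Cyp4a10 and 21.8% of Cyp4a31 occurred exactly in another gene, against 0.245% of Cyp4a14. The Cyp4f genes and Cyp4v3 shared at most 7.02%. The close copies are therefore also given summed.

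**Figure D1:**
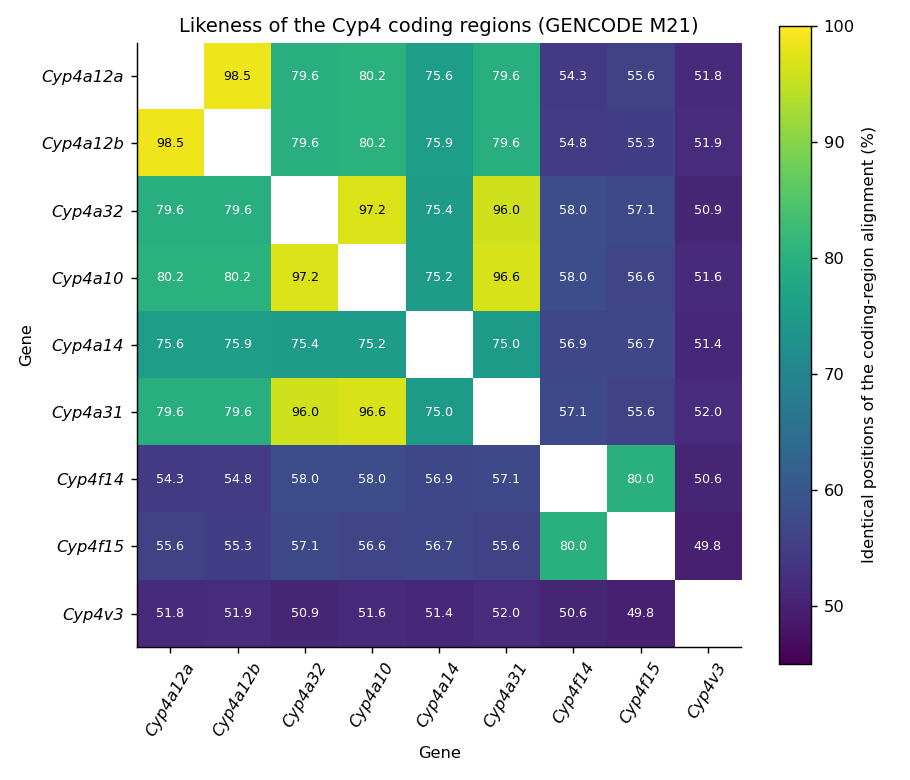
Percent of identical positions in the pairwise alignment of the coding regions of the 9 Cyp4 genes (GENCODE M21), coloured from 45% to 100%. The pair Cyp4a12a and Cyp4a12b and the trio Cyp4a10, Cyp4a31 and Cyp4a32 stand out at 96.0% or more, while Cyp4a14 is at most 75.9% identical to any other.

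The stretches of 60 coding bases in which the close copies differ most are shown because Cyp4a31 and Cyp4a32 differed in opposite directions. Only reads over positions that differ can tell such copies apart. How far the counts rest on such reads is not known. They are the sense strand of the GENCODE M21 transcripts (GRCm38), numbered from the A of the start codon, and capitals mark the positions at which the copies are not all the same. Bases 200 to 259 of the trio held 9 such positions.
Cyp4a10: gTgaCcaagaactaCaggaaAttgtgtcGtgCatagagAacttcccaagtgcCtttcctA
Cyp4a31: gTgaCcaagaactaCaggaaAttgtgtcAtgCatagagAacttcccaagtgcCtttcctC
Cyp4a32: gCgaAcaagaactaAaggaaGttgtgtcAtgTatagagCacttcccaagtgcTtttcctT
Over the whole coding region of 1527 bases the trio differed at 77 positions, and the base was found in 1 copy alone at 18 of them for Cyp4a10, 36 for Cyp4a31 and 27 for Cyp4a32. Cyp4a12a and Cyp4a12b differed at 23 of 1524 positions, and bases 624 to 683 held 4 of them.
Cyp4a12a: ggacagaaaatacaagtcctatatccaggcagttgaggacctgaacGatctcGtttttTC
Cyp4a12b: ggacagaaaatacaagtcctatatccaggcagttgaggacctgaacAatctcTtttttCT

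The RefSeq promoter table (GRCm38.p6) matched 4 of the 9 genes: Cyp4a32, Cyp4f14, Cyp4f15 and Cyp4v3, all of which were lower under the OGT-KO label. Cyp4a10, Cyp4a12a, Cyp4a12b, Cyp4a14 and Cyp4a31 had no entry. The 250 bases before the start of each gene were searched on both strands for 2 copies of AGGNCA with 1 base between them, a direct repeat of the kind that PPARα and its partner RXR bind, for its half-site AGGTCA and for the TATA motif TATAAA. The direct repeat was found in 0.3379% of the 32851 promoters in the table, the half-site in 14.02% and the TATA motif in 12.37%. None of the windows of the 4 genes held the direct repeat or the half-site, and 1 of them, that of Cyp4a32 at chr4:115600688-115600937 on the plus strand, held the TATA motif. It is printed here, with that match in capitals, as the only window of a gene from the Cyp4a cluster.
Cyp4a32: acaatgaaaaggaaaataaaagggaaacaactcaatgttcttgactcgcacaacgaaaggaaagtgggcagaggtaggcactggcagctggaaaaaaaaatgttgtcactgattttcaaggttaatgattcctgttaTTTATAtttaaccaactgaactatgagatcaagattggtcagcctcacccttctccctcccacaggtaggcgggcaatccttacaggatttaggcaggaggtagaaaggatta
The match lies on the opposite strand to the gene.

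With no recovery, 8 of the 9 genes were lower by 2-fold or more under the OGT-KO label and 1, Cyp4a31, was higher by as much, where differences are of log2(CPM + 1). Of all genes compared, 5.69% were lower by that much and 24.4% higher. The median difference of the 9 genes was -2.26 on the log2 scale, beside 0.51 for all genes compared. After 7 days of recovery 5 were lower, 2 (Cyp4a14 and Cyp4a31) were higher and 2 (Cyp4a10 and Cyp4v3) were within 2-fold, with a median of -1.22 beside 0.48 for all genes. The shares of all genes were then 4.27% lower and 22.9% higher. Since 100 genes took 34.1% to 44.99% of the reads, the scaling matters for the whole set: 81.1% of the genes called with no recovery and 84.3% after 7 days were higher as deposited, and 40.4% and 49.6% after median-ratio scaling, which moved the median of all genes to -0.19 and -0.18. The sign of each of the 9 label differences was the same under every scaling tried at both times.

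The reads on the 9 genes together came to 1702 CPM under Control and 378.9 CPM under OGT-KO with no recovery, 4.49-fold lower (4.39 to 4.60). After 7 days they came to 1326 and 561.5 CPM, 2.36-fold lower (2.31 to 2.41). Without Cyp4a12a and Cyp4a12b the sum of the other 7 was 3.09-fold lower (3.01 to 3.17) with no recovery and 1.75-fold lower (1.71 to 1.79), which is under 2-fold, after 7 days. The sum of the 6 Cyp4a genes was 833 against 70.3 CPM with no recovery, 11.9-fold lower (11.3 to 12.5), and 499 against 166 CPM after 7 days, 3.01-fold lower (2.90 to 3.12). The sum of Cyp4f14 and Cyp4f15 differed less, at 415 against 127 CPM and then 452 against 167 CPM.

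**Figure D2:**
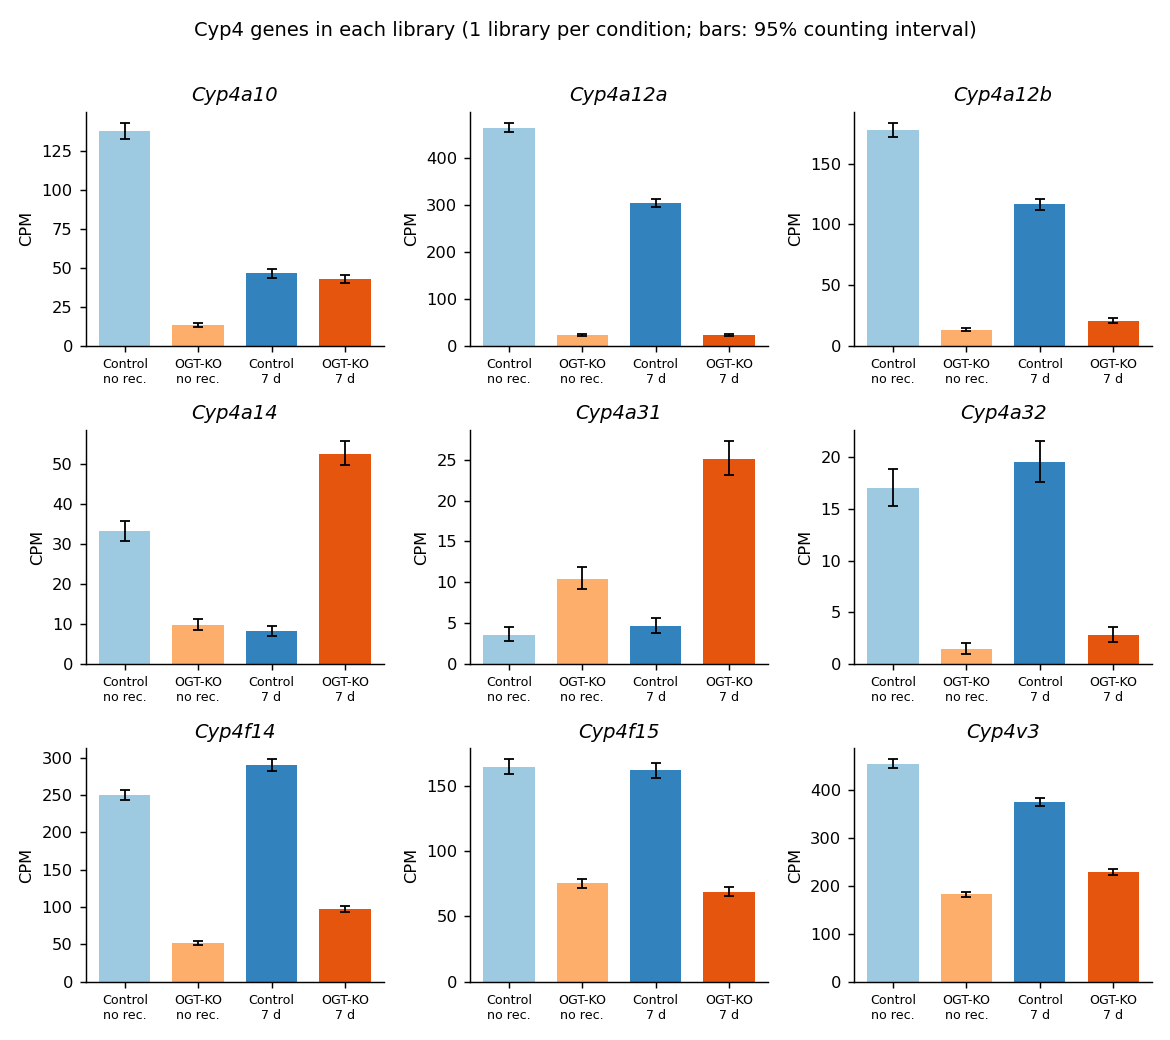
CPM of each of the 9 Cyp4 genes in the 4 libraries, 1 bar per library (no rec., no recovery; 7 d, 7 days of recovery), with 95% counting intervals; each panel has its own scale from 0. Cyp4a12a, Cyp4a12b, Cyp4a32 and the Cyp4f genes are low under the OGT-KO label at both times, Cyp4a31 is high under it, and Cyp4a14 turns from 33.2 against 9.75 CPM to 8.16 against 52.7 CPM.

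Cyp4a12a and Cyp4a12b, the male-biased arachidonic acid hydroxylases, showed the largest differences of the family between the labels with no recovery. Cyp4a12a stood at 464 CPM under Control and 22.3 CPM under OGT-KO, 20.9-fold lower (19.1 to 22.9), and after 7 days at 304 and 22.3 CPM, 13.6-fold lower (12.4 to 14.9). Cyp4a12b stood at 177 and 13.2 CPM, 13.4-fold lower (11.9 to 15.2), and then at 116 and 20.4 CPM, 5.69-fold lower (5.15 to 6.30). The libraries labelled Control lay above both libraries labelled OGT-KO for either gene. Between the libraries labelled OGT-KO, the ratio of the recovered to the unrecovered one was 1.003 (0.885 to 1.14) for Cyp4a12a and 1.55 (1.33 to 1.79) for Cyp4a12b. Their read ratio was 2.62 (2.52 to 2.72) and 2.61 (2.49 to 2.74) under Control, and 1.69 (1.46 to 1.95) and then 1.09 (0.962 to 1.24) under OGT-KO. As a sum, which does not depend on how their shared reads were split, they were 18.1-fold (16.9 to 19.4) and 9.83-fold (9.19 to 10.5) lower.

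Cyp4a10 and Cyp4a14, the PPARα targets, were the genes whose difference between the labels changed most with recovery. Cyp4a10 stood at 138 CPM under Control and 13.2 CPM under OGT-KO with no recovery, 10.4-fold lower (9.22 to 11.7). After 7 days it stood at 46.4 and 42.5 CPM, and the interval of the ratio of 0.917 (0.837 to 1.004) includes equality. Under Control the recovered library was thus 2.96-fold lower (2.75 to 3.20) than the unrecovered one, and under OGT-KO it was 3.21-fold higher (2.82 to 3.67).

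Cyp4a14 stood at 33.2 CPM under Control and 9.75 CPM under OGT-KO with no recovery, 3.40-fold lower (2.93 to 3.98). After 7 days the order was the opposite, at 8.16 and 52.7 CPM, 6.46-fold higher (5.48 to 7.65) under OGT-KO. Both labels contributed: the Control level was 4.07-fold lower (3.43 to 4.86) after recovery than before it, and the OGT-KO level 5.40-fold higher (4.68 to 6.26). Of its stretches of 50 bases, 0.245% occurred in another gene.

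The difference between the labels was 4.22 higher on the log2 scale after 7 days than with no recovery for Cyp4a14, and 3.16 higher for Cyp4a10. Of the 8963 genes compared, 0 had a larger change in that direction than Cyp4a14 and 1 had a larger change than Cyp4a10, namely Cyp4a14. These genes were chosen with the values known, and no test was made. The other 7 Cyp4 genes lay between -0.10 (Cyp4f15) and 1.20 (Cyp4a12b). Within a library, the ratio of Cyp4a14 to Cyp4a10 reads was 0.241 (0.222 to 0.262) and 0.176 (0.148 to 0.208) under Control, and 0.736 (0.616 to 0.878) and then 1.24 (1.14 to 1.35) under OGT-KO.

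**Figure D3:**
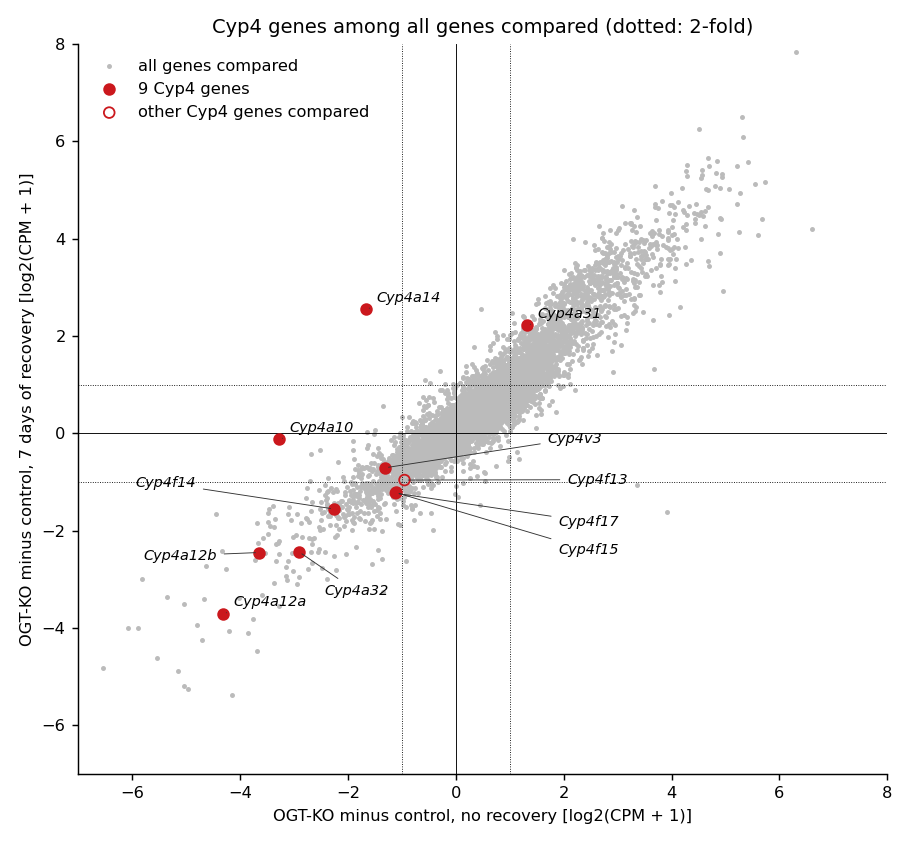
Difference of log2(CPM + 1) between the libraries labelled OGT-KO and Control with no recovery (horizontal) and after 7 days (vertical) for the 8963 genes compared, of which 14 lie beyond the axes; filled red points are the 9 Cyp4 genes and open points Cyp4f13 and Cyp4f17. Most genes lie near the diagonal, while Cyp4a14 (-1.67 and 2.55) and Cyp4a10 (-3.28 and -0.12) lie far above it.

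Cyp4a31 and Cyp4a32, close copies of Cyp4a10 whose own substrates are less studied, went opposite ways. Cyp4a32 stood at 17.0 CPM (362 reads) under Control and 1.40 CPM (32 reads) under OGT-KO with no recovery, and at 19.5 and 2.79 CPM after 7 days, 12.2-fold (8.47 to 18.1) and 6.99-fold (5.35 to 9.28) lower. Cyp4a31 stood at 3.58 CPM (76 reads) and 10.4 CPM (238 reads), and then at 4.61 and 25.1 CPM, 2.91-fold (2.24 to 3.82) and 5.45-fold (4.37 to 6.88) higher. No library of one label reached the range of the other for either gene. The reads of Cyp4a31 per read of Cyp4a32 came to 0.210 and 0.236 under Control, and 7.44 (5.13 to 11.1) and 9 (6.93 to 11.9) under OGT-KO.

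With no recovery the call of Cyp4a31 depended on the scaling: its log2 difference was 1.32 as deposited, 0.70 after median-ratio scaling and 0.91 after upper-quartile scaling. The trio Cyp4a10, Cyp4a31 and Cyp4a32 summed was 6.31-fold lower (5.78 to 6.91) under OGT-KO with no recovery, at 25.1 against 158 CPM. After 7 days the trio stood at 70.5 CPM under either label, a ratio of 0.999 (0.929 to 1.07). Within that equal sum, Cyp4a31 held 567 of 1590 reads under OGT-KO and 92 of 1409 reads under Control.

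Cyp4f14 and Cyp4f15, hydroxylases of leukotrienes and related eicosanoids, were lower under OGT-KO at both times. Cyp4f14 stood at 250.2 CPM under Control and 51.6 CPM under OGT-KO with no recovery, 4.85-fold lower (4.55 to 5.17), and at 290.2 and 97.9 CPM after 7 days, 2.96-fold lower (2.82 to 3.11). Cyp4f15 stood at 164.5 and 75.2 CPM, 2.19-fold lower (2.06 to 2.32), and then at 162 and 68.95 CPM, 2.35-fold lower (2.21 to 2.49). Cyp4f15 was the steadiest of the 9 over time, with ratios of 0.983 (0.937 to 1.03) under Control and 0.917 (0.855 to 0.982) under OGT-KO between the recovered and the unrecovered library, whereas Cyp4f14 was 1.90-fold higher (1.77 to 2.04) after recovery under OGT-KO. The ratio of their reads was 1.52 and 1.79 under Control, and 0.685 and then 1.42 under OGT-KO.

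Cyp4v3 was the most abundant of the 9 under OGT-KO and the least changed between the labels after 7 days apart from Cyp4a10. It stood at 454 CPM under Control and 182 CPM under OGT-KO with no recovery, 2.50-fold lower (2.41 to 2.59), and at 375 and 229 CPM after 7 days, 1.64-fold lower (1.58 to 1.70). After 7 days its log2 difference was -0.71 as deposited, -1.39 after median-ratio scaling and -1.20 after upper-quartile scaling, so that it was then at least 2-fold lower.

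Over time within a label, the library after 7 days was set against the library with no recovery. Under Control, 2 of the 9 genes (Cyp4a10 and Cyp4a14) were at least 2-fold lower and 0 higher, beside 0.96% lower and 0.245% higher among all genes compared. Under OGT-KO, 3 (Cyp4a10, Cyp4a14 and Cyp4a31) were at least 2-fold higher and 0 lower, beside 1.04% higher and 0.435% lower among all genes. The median of the 9 was -0.28 under Control and 0.66 under OGT-KO, where the median of all genes was -0.05 and -0.03. These comparisons share libraries with those between the labels and are not separate evidence.

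Levels of different genes were compared per kilobase of annotated exon. The intervals do not cover how reads shared between close copies were counted, which is not known and bears on the order. The exon model of Cyp4a32 held 1536 bases, of which 1527 were coding. Cyp4a12a was the highest of the family under Control with no recovery (192 CPM per kilobase), followed by Cyp4v3 (119), Cyp4f14 (103) and Cyp4a12b (74.05). Then came Cyp4f15 (72.1), Cyp4a10 (65.2), Cyp4a14 (12.8), Cyp4a32 (11.1) and Cyp4a31 (1.43). In that order Cyp4a12b and Cyp4f15, and Cyp4a14 and Cyp4a32, had overlapping intervals. Under OGT-KO with no recovery the order opened with Cyp4v3 (47.7), Cyp4f15 (33.0) and Cyp4f14 (21.3), and Cyp4a12a followed at 9.19. After 7 days Cyp4a12a (126) and Cyp4f14 (120.0) had overlapping intervals at the top under Control. Under OGT-KO Cyp4v3 (60.1), Cyp4f14 (40.5) and Cyp4f15 (30.2) came first, then Cyp4a14 (20.3) and Cyp4a10 (20.2) with overlapping intervals, and Cyp4a31 (10.01), Cyp4a12a (9.22) and Cyp4a12b (8.53), of which each neighbouring pair overlapped. Per kilobase of coding sequence instead, Cyp4v3 (238) came before Cyp4a12a (199) under Control after 7 days. Cyp4a31, last of the 9 in both libraries labelled Control, thus stood level with Cyp4a12a in the recovered library labelled OGT-KO.

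The make-up of the family, which does not depend on the scaling between libraries, shifted accordingly. Of 36173 reads on the 9 genes under Control with no recovery, Cyp4a12a held 27.3% and Cyp4v3 26.7%. Of 8663 reads under OGT-KO, Cyp4v3 held 48.0% and Cyp4a12a 5.88%. After 7 days Cyp4a12a held 22.9% of 26481 reads under Control and 3.98% of 12672 reads under OGT-KO. The share of Cyp4a14 was 1.95% and 0.616% under Control, and 2.57% and then 9.38% under OGT-KO, and that of Cyp4a31 was 0.210% and 0.347%, and 2.75% and then 4.47%.

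**Figure D4:**
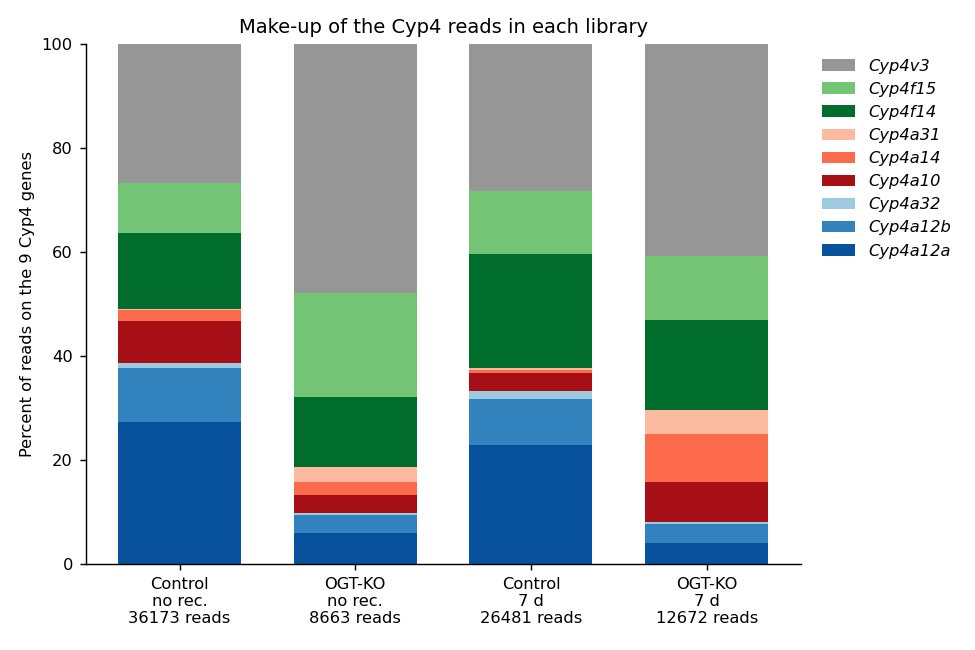
Each Cyp4 gene as a percent of the reads on the 9 genes in each library, with the number of reads under each bar. Cyp4a12a (dark blue) takes 22.9% to 27.3% under Control and 3.98% to 5.88% under OGT-KO, where Cyp4v3 (grey) takes 40.7% to 48.0%.

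The other Cyp4 genes in the table, from low to moderate levels, did not all go the same way. Cyp4f13 (74.9 and 38.3 CPM with no recovery, 70.2 and 35.5 CPM after 7 days) and Cyp4f17 (26.2 and 11.6 CPM, 27.9 and 11.3 CPM) were lower under OGT-KO by a log2 difference of -0.95 to -1.23. Cyp4f18, an eicosanoid hydroxylase of myeloid cells, stood at 0.659 and 9.53 CPM and then at 0.300 and 8.95 CPM. Cyp4f16 stood at 2.59 and 15.2 CPM and then at 1.95 and 13.4 CPM. Both were higher under OGT-KO, as were macrophage markers, whose summed level was 438 and 1904 CPM with no recovery and 162 and 1435 CPM after 7 days. The part of macrophages in these values was not tested. Cyp4b1 stood between 5.27 and 9.97 CPM in the 4 libraries.

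The genes of the pathway around the family were taken from lists. The counts of each list stand beside the shares of all genes compared. With no recovery 5.69% of these were at least 2-fold lower and 24.4% higher under OGT-KO, and after 7 days 4.27% and 22.9%. Ppara, which encodes the receptor, stood at 59.8 and 23.5 CPM with no recovery (log2 difference -1.31) and at 58.2 and 30.2 CPM after 7 days (-0.92). Rxra, its dimerisation partner, stood at 547 and 365 CPM and then at 565 and 371 CPM, and the coactivator Ppargc1a stayed between 6.46 and 10.4 CPM. The list of PPARα and its partners also held Ppard and Pparg, which encode other PPAR receptors. Of its 15 genes compared, 1 was at least 2-fold lower and 1 higher with no recovery (median 0.27). After 7 days 0 were lower and 2 higher (median 0.44). The higher gene with no recovery was Ppard (1.27), and those after 7 days were Ppard (1.28) and Nrip1 (1.405). Ppard, Pparg and Nrip1 were named after their values were seen. The medians were -0.44 and -0.24 after median-ratio scaling and -0.21 and -0.05 after upper-quartile scaling. The corepressor Ncor1 and the coactivator Crebbp were within 2-fold at both times, and Lpin1, a phosphatase that also acts as a coactivator, had a log2 difference of -0.93 after 7 days.

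PPARα targets outside the family were called in both directions. With no recovery 8 of 35 compared were at least 2-fold lower and 4 higher under OGT-KO (median -0.52). Of all genes compared, 5.69% were lower and 24.4% higher by that much. After 7 days 5 of the 35 were lower and 4 higher (median -0.29), beside 4.27% and 22.9% of all genes. Fabp1, the liver fatty acid binding protein, stood at 3629 and 323 CPM and then at 3994 and 949 CPM. Plin2, a lipid droplet coat protein, was higher at both times (log2 differences 0.81 and 0.71). The log2 differences of the peroxisomal thiolase Acaa1b were -2.54 and -1.16. Over time under OGT-KO, where Cyp4a10 and Cyp4a14 were higher after recovery, 3 of the 35 targets were at least 2-fold higher (Fabp1, and the thioesterases Acot1 and Acot4) and 1 was lower (Cidec, of lipid droplets). The last 3 were named after their values were seen. Of all genes compared, 1.04% were higher and 0.435% lower in that comparison. Acot1 stood at 15.3 and 5.38 CPM and then at 8.66 and 13.3 CPM, so that it was lower and then higher under OGT-KO, as Cyp4a14 was, though by less than 2-fold after 7 days.

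The route that takes omega-hydroxylated acids onward was lower in part. Of 28 genes of alcohol and aldehyde oxidation, acyl-CoA formation and peroxisomal shortening, 11 were at least 2-fold lower and 2 higher under OGT-KO with no recovery (median -0.65), and 6 lower and 3 higher after 7 days (median -0.23). Among all genes compared, 5.69% were lower and 24.4% higher by that much, and then 4.27% and 22.9%. Scp2, which encodes a peroxisomal thiolase and sterol carrier, stood at 3665 and 1292 CPM and then at 3560 and 1306 CPM. Adh1, an alcohol dehydrogenase, stood at 1801 and 853 CPM and then at 1738 and 1322 CPM, and Acsl1, an acyl-CoA synthetase, at 1309 and 170.1 CPM and then at 889.5 and 280.1 CPM. Aldh1a1, an aldehyde dehydrogenase, was within 2-fold at both times.

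The electron donors of P450 enzymes were mostly within 2-fold between the labels as deposited. The list held donors of P450 enzymes in general, and those that serve CYP4 enzymes were not set apart. Por, the reductase, stood at 234 and 333 CPM with no recovery and at 269 and 383 CPM after 7 days, a log2 difference of 0.51 at both times. Of the 6 donors compared, 1 was lower and 1 higher by 2-fold with no recovery (median -0.05), and 0 were lower or higher by that much after 7 days (median -0.20). Among all genes compared, 5.69% were lower and 24.4% higher by that much, and then 4.27% and 22.9%. After median-ratio scaling the medians of the 6 donors were -0.77 and -0.88. Cyb5a, encoding cytochrome b5, stood between 698 and 749 CPM, and Cyb5b was the lower gene, at 659 and 256 CPM. The higher gene was Fdxr, at 30.7 and 65.8 CPM, named after its values were seen.

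Of the other enzymes and receptors of arachidonic acid and leukotrienes, 16 were compared, of which 5 were at least 2-fold lower and 2 higher with no recovery (median -0.78), and 7 lower and 3 higher after 7 days (median -0.68). The shares of all genes compared were 5.69% lower and 24.4% higher, and then 4.27% and 22.9%. With no filter the medians of the list had the opposite sign, at 0.51 and 0.35, over its 30 genes in the table. The leukotriene receptor genes did not pass the limit. The lower genes were Cyp2 P450 genes and, with no recovery, also Ephx2. The higher ones were Ptgs1 and Ptgr1, joined after 7 days by Cyp2c55. Lta4h, a leukotriene enzyme, was within 2-fold (log2 differences 0.265 and 0.392). Lta4h, Ptgs1, Ptgr1 and Cyp2c55 were named after their values were seen. Cyp2c29, an epoxygenase, stood at 1366 and 66.8 CPM and then at 1218 and 226 CPM. Cyp2c50 stood at 686 and 127 CPM and then at 740 and 136 CPM, and Cyp2c70 at 494 and 258 CPM and then at 651 and 315 CPM. The log2 differences of Ephx2, the soluble epoxide hydrolase, were -1.02 and -0.99, while those of Ephx1, the microsomal one, were 0.88 and 0.97.

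Because Cyp4a12a and Cyp4a12b are male-biased, genes with sex-biased liver levels were set beside them. Of 15 male-biased genes outside the family, 13 were at least 2-fold lower and 0 higher with no recovery (median -3.09), and 14 lower and 0 higher after 7 days (median -3.07), beside differences of -4.32 and -3.71 for Cyp4a12a. Of all genes compared, 5.69% were lower by as much and 24.4% higher, and after 7 days 4.27% and 22.9%. Cyp2f2 stood at 2199 and 392 CPM and then at 1854 and 270 CPM. Nudt7, a peroxisomal CoA hydrolase, stood at 738 and 70.8 CPM and then at 967 and 114 CPM. Mup20, which encodes a urinary protein, was lower by less, with log2 differences of -1.15 and -0.96. Of 15 female-biased genes in the table, 4 were compared, and these passed the limit of 10 CPM only through the libraries labelled OGT-KO, so that their being higher there was fixed by the filter. With no filter the medians were 1.60 and 1.91. Cyp2a4 stood at 8.94 and 963 CPM and then at 9.66 and 193 CPM. The 4 Y-linked genes were within 2-fold.

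Growth hormone, whose male pattern of release maintains Cyp4a12a in mouse liver, acts through a receptor and STAT5B. Ghr, the receptor gene, stood at 502 and 119 CPM with no recovery and at 410 and 124 CPM after 7 days (log2 differences -2.07 and -1.72). Stat5b stood at 64.8 and 57.3 CPM and then at 53.4 and 56.0 CPM. Of the 14 genes of this list compared, 6 were at least 2-fold lower with no recovery (median -0.82) and 3 after 7 days (median -0.63), and 0 were higher at either time. The matching shares of all genes compared were 5.69% lower and 24.4% higher, and then 4.27% and 22.9%. Hnf4a stood at 851 and 335 CPM and then at 864 and 458 CPM. Igfals stood at 141 and 12.9 CPM and then at 141 and 40.5 CPM, and Igf1 was within 2-fold at both times.

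**Figure D5:**
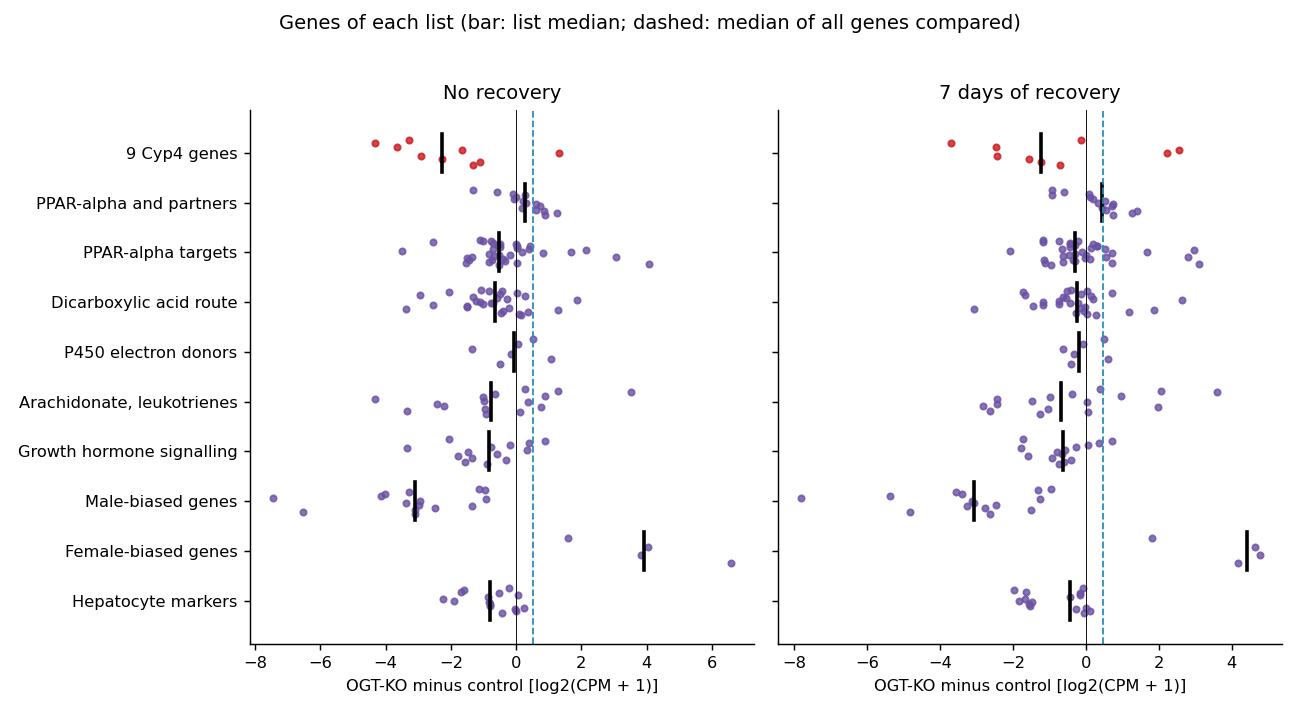
Difference of log2(CPM + 1) between the libraries labelled OGT-KO and Control for each compared gene of 10 lists, with no recovery and after 7 days; black bars are list medians and the dashed line is the median of all genes compared (0.51 and 0.48). The 9 Cyp4 genes (red) spread from -4.32 to 1.32 and then from -3.71 to 2.55, and the male-biased genes lie below 0 at both times.

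Markers of liver cell types moved with the same comparisons. Among all genes compared, 5.69% were at least 2-fold lower and 24.4% higher under OGT-KO with no recovery, and 4.27% and 22.9% after 7 days. Of 15 hepatocyte markers compared, 4 were at least 2-fold lower under OGT-KO with no recovery (median -0.81) and 7 after 7 days (median -0.44), while Alb stood at 47850 and 41360 CPM and then at 54430 and 51510 CPM. Of the duct and progenitor markers, 10 of 11 compared were higher at both times, and of the stellate cell and fibroblast markers 11 of 11. All 12 macrophage markers compared were higher at both times. After recovery under Control 11 of the 12 were at least 2-fold lower (median -1.35), beside 0.96% of all genes compared. Cyp4a10 and Cyp4a14 were lower there too. Under OGT-KO 0 of the 12 macrophage markers changed by 2-fold after recovery (median -0.46), while Cyp4a10 and Cyp4a14 were higher. Of the duct, stellate and macrophage markers compared, 6, 5 and 4 averaged under 10 CPM under Control and passed only through the libraries labelled OGT-KO. Of 10 endothelial markers, 5 were higher with no recovery and 4 after 7 days. Neutrophil markers summed to 5.55 and 31.1 CPM and then to 2.35 and 46.8 CPM, and lymphocyte markers to 4.42 and 11.3 CPM and then to 4.16 and 6.96 CPM. Mmp8 and Cd8a, named after their values were seen, were each at 0 in at least 1 library. The part of cell composition in the differences of the Cyp4 genes was not tested.

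The genes outside the family whose pattern over the 4 libraries was closest to the summed 9 Cyp4 genes, by Euclidean distance between centred log2(CPM + 1) values, were Tmem256 (0.130), Gpr155 (0.151), Slc3a1 (0.153), Nlrp6 (0.155) and Adra1b (0.165). Nlrp6, for example, stood at 241 and 49.6 CPM and then at 199 and 73.4 CPM, differences of -2.26 and -1.43 beside -2.16 and -1.24 for the sum. With 4 libraries such likeness is a description only.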

How the data were processed

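Bulk mRNA-seq of 4 pooled mouse liver libraries was analysed. The authors deposited CPM for 13903 genes; each library sums to 1000000, and 100.0% of values lay within 0.01 of a whole multiple of 1 read, so whole reads were recovered. The submitters' processing notes name STAR, DESeq2 and GRCm39; the counter and the rule for reads matching several genes are not given in the sources used here. 3 reads correspond to 0.131 to 0.150 CPM.

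Genes averaging 10 CPM or more were compared by log2(CPM + 1), on which changes of low genes come out smaller, and called at 2-fold. With 1 library per condition, and genes chosen with their values known, no test between conditions was run. Intervals are exact: Poisson for CPM, conditional binomial for ratios and Clopper-Pearson for shares. Fold values are ratios of CPM without the pseudocount. Lengths, transcripts and coding regions came from GENCODE M21 (GRCm38), which held 13893 of the identifiers. The members and lists were chosen with earlier results of these data known. The text names every Cyp4 gene, Ogt, from each other list genes among its 5 of highest mean, 6 regulators chosen by role (Ppara, Rxra, Ppargc1a, Por, Ghr and Stat5b), and the 5 genes most like the family; exceptions are stated, and some genes of this rule are not reported here.

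Alternatives were pseudocounts of 0.1 and 10, no filter, a mean of at least 50 CPM, 3 other scalings, a 4-fold threshold, an added exact binomial test on reads between libraries with Benjamini-Hochberg adjustment, summing near-identical copies, and sums without Cyp4v3 or, chosen after seeing the data, without Cyp4a12a and Cyp4a12b. Python 3.11.15 with numpy 2.4.6, pandas 2.3.3, scipy 1.17.1, Biopython 1.88 and matplotlib 3.10.9 was used, and the steps were tested on simulated data. All columns of the table were used.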

Additional observations from a re-analysis of the deposited data

Results flagged for a closer look

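The following genes and sums went opposite ways in a pair of comparisons with 1 library on each side, and the differences were not tested. Cyp4a14 was -1.67 (log2, OGT-KO minus Control) with no recovery and 2.55 after 7 days. After recovery it was -1.90 under Control and 2.32 under OGT-KO relative to no recovery. Cyp4a10 was -1.55 under Control and 1.61 under OGT-KO after recovery. Their sum was -2.84 and 0.79 between the labels at the 2 times, and -1.63 under Control and 2.00 under OGT-KO after recovery. The sum of all 6 Cyp4a genes was -0.74 and 1.23 after recovery, and that of Cyp4a10, Cyp4a31 and Cyp4a32 -1.15 and 1.46. Outside the family, Cyp2c29 was -0.17 under Control and 1.74 under OGT-KO after recovery. The values of a label share libraries across these pairs, so they are not separate observations.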

How the results depend on the processing

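With 1 library per condition no replicate could be left out. No paired analysis was possible because each condition had 1 library and the labels carry no replicate numbers. Of 240 member differences recomputed, 4 lost a 2-fold call, 2 gained one and 0 called ones changed sign, while 3 near 0, all of Cyp4f15 over time under Control, took the opposite sign. Sizes moved more for low genes: with a pseudocount of 10, Cyp4a32 went from -2.91 to -1.25 with no recovery. The summed difference of -2.16 and -1.24 (log2) was -2.88 and -1.92 after median-ratio scaling, -2.64 and -1.72 after upper-quartile scaling, -2.39 and -1.50 with totals that left out the 100 genes of highest mean, and -2.66 and -1.51 without Cyp4v3. Without Cyp4a12a and Cyp4a12b, an alternative chosen after seeing the data, it was -1.62 and -0.80, the latter under 2-fold. At a 4-fold threshold 5 genes were lower under OGT-KO with no recovery and 3 after 7 days, when Cyp4a14 and Cyp4a31 were higher by as much. Over time, 0 changed by 4-fold under Control and 1 under OGT-KO. The share of all genes at 4-fold is not given here, so these counts have no background. Under a limit of 50 CPM on the mean, which 6 of the 9 genes passed, 1 gene (Cyp4a10) changed over time under each label. With near-identical copies summed, 3 of 6 units were lower by 2-fold after 7 days and Cyp4a14 was higher, beside 4.27% lower and 22.9% higher among all genes compared. A pseudocount of 10 ended the calls of Cyp4a31 with no recovery (0.59) and over time under OGT-KO (0.78). Of 192 list medians recomputed, 21 passed 2-fold that had not and 12 took the opposite sign, all of them under 2-fold: those of the arachidonic acid list with no filter, and of PPARα with its partners and the Y-linked genes under other scalings. The added binomial test, which compares libraries and not conditions, removed 0 member calls; it called 8016 of 8963 genes with no recovery at an adjusted p under 0.05, and so sets no limit of its own.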
